A study of Mus musculus with 8 samples.

Results

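The genes described here are 9 genes that mark B cells and plasma cells, taken from the 27179 genes of a table of read counts from whole primary tumours. They are Cd79a, Cd79b, Ms4a1, Cd22, Pax5, Blk, Fcer2a, Cr2 and Jchain, and they were chosen by name. The choice was made knowing that the tumours numbered 4 in both groups held more of their reads, so the standing of these tumours is given as a description without a test. BALB/c mice received 4T1.13 cells in a mammary fat pad. These cells are of a metastatic murine mammary carcinoma line. In the miR-21-KD group (4 tumours) the cells carried the miArrest lentiviral vector, whose transcript sequesters miR-21, and in the vector control group (VC, 4 tumours) the vector carried a scrambled sequence. The knockdown was therefore carried by the injected cells and not by the cells of the host, and several clones were pooled for each line. The labels give recovery on day 14 after injection of 100000 cells for both groups, whereas the methods of the study name a slightly earlier day. The question of the comparison was how loss of miR-21 function in the tumour cells altered the tumour transcriptome.

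B cells recognise antigen through a membrane immunoglobulin that signals through the CD79A and CD79B proteins, and coreceptors such as CD21 and CD22 raise or lower that signal. Naive B cells carry IgM and IgD. After activation, often with T cell help in a germinal centre, they can switch to IgG, IgA or IgE and can differentiate into plasma cells, which secrete antibody and no longer express most B cell surface genes. In tumours both cell types can lie scattered, in lymphoid aggregates or in lymphoid tissue next to the tumour.

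In GRCm38 the genes lie on 8 chromosomes, with only Cd79a (chr7:24897497-24901858) and Cd22 (chr7:30865404-30880342) on the same one. Upstream windows of 250 bases were present for 6 of the 9 genes in the RefSeq table (GRCm38.p6). Both windows below are shown because the levels of Cd79a, a receptor chain, and Jchain, the secretory gene, rose to different extents in the tumours numbered 4, as described further on. Bases are given 5′ to 3′ on the strand of the gene and end directly before its start, Cd79a at chr7:24897247-24897496 (plus strand) and Jchain at chr5:88527898-88528147 (minus strand). Capitals mark an E-box and an ETS motif.
Cd79a: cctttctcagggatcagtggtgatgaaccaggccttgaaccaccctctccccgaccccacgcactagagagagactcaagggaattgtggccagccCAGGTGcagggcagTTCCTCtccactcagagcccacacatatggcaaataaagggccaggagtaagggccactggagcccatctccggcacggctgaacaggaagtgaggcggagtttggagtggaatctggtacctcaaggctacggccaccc
Jchain: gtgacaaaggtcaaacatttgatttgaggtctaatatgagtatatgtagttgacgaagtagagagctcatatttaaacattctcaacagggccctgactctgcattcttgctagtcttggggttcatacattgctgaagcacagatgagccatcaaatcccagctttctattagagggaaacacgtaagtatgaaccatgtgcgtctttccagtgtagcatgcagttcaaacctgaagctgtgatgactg

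Such windows were searched on both strands for the E-box CAGGTG, the ETS core GAGGAA, the EBF motif TCCCNNGGG and the octamer ATGCAAAT. In Cd79a the E-box lay 154 to 149 bases and the ETS motif 140 to 135 bases before the start, and none of these letters was found in the Jchain window. The E-box was present before Cd79a, Cd22, Cr2 and a second start of Fcer2a, and in 17.2% of all 32851 promoter windows. The EBF motif occurred before Cd22 alone of these genes, and in 5.60% of all windows, where overlapping matches on both strands lay 49 to 40 bases before the start. The ETS motif occurred before Cd79a alone of these genes, and in 23.25% of all windows. The octamer was in none of their windows and in 1.6% of all. A match of letters is a description and not a binding site.

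Between 12134849 and 13592695 reads per VC tumour and between 12550898 and 12783800 reads per miR-21-KD tumour were counted on genes. Levels are given as CPM (the count of a gene relative to the size of its library), scaled by TMM, an edgeR factor that aligns the bulk of the genes between libraries. A count of 0 allows up to 3 counts, which is 0.221 to 0.244 CPM depending on the tumour, and covers counting error only. In whole tumours fewer cells of a type and less RNA per cell cannot be told apart. Markers of the tumour epithelium (Epcam, Krt8, Krt18 and Cdh1) were present in all 8 tumours.

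Reads of most of these genes were few in 3 tumours of each group and more abundant in the tumour numbered 4. Of the 9 genes, 8 were at their highest in tumour 4 of both groups, which held for 9.66% of the 14382 genes with enough reads for testing. In VC tumour 4, 7 of the 9 exceeded every other VC tumour more than 5-fold, against 0.570% of the tested genes (82). In miR-21-KD tumour 4, 5 of the 9 did so against the other miR-21-KD tumours, against 0.0626% (9 genes). Among the 5 of the 9 genes that had enough reads for testing, 4 did so in VC tumour 4 and 2 in miR-21-KD tumour 4. The summed level of the 9 genes was 22.6 to 72.3 CPM in VC tumours 1 to 3 and 1224 CPM in VC tumour 4. It was 62.2 to 197.8 CPM in miR-21-KD tumours 1 to 3 and 255.2 CPM in miR-21-KD tumour 4. Most of each sum came from Jchain and Cd22. These were at 1036 and 52.0 CPM in VC tumour 4 and at 125.1 and 56.2 CPM in miR-21-KD tumour 4. The sums therefore say little of the other genes.

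**Figure D1:**
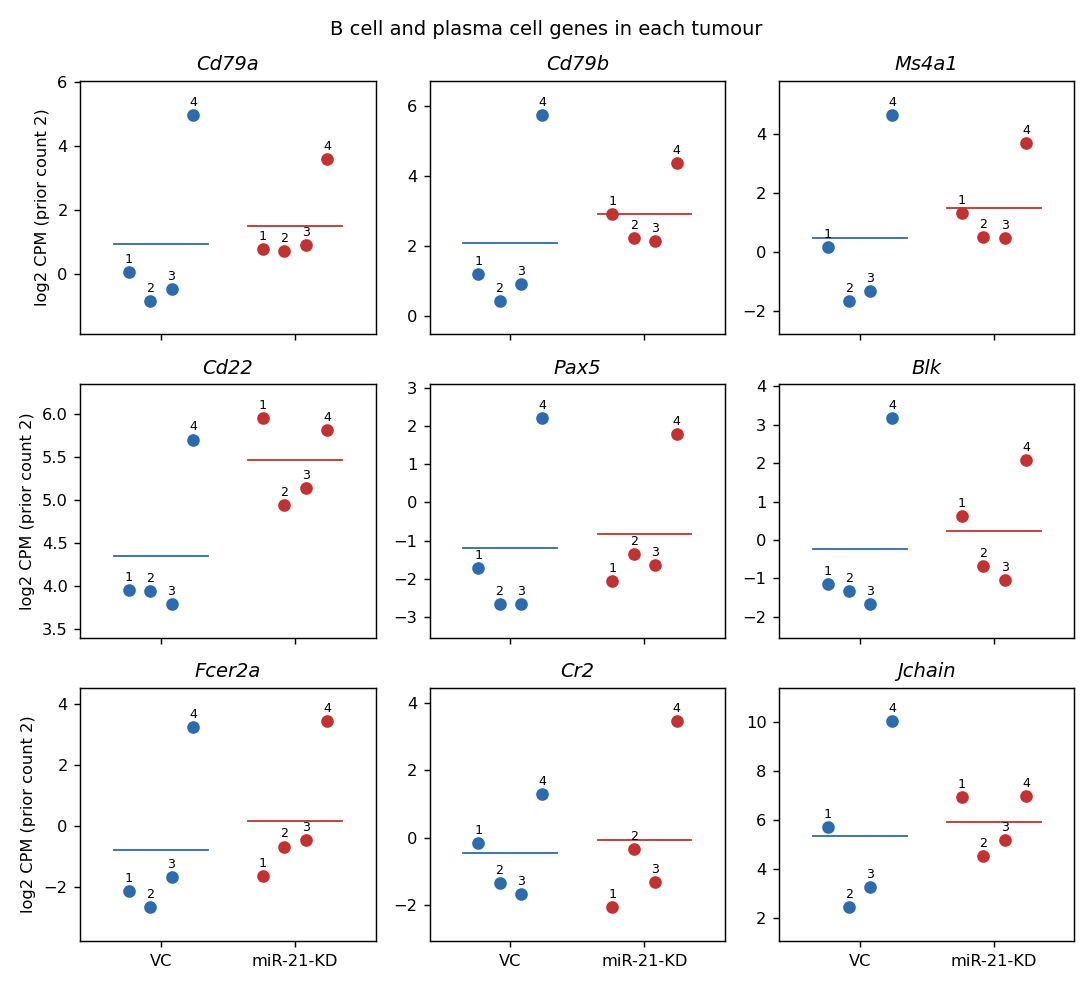
Level of each gene in each tumour, as log2 CPM with a prior count of 2, by group (VC blue, miR-21-KD red). Numbers are the replicate numbers and lines the group means of the log2 values. Tumour 4 is the highest point of its group in every panel but Cd22, where miR-21-KD tumour 1 (62.0 CPM) lies above tumour 4 (56.2 CPM).

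Cd79a and Cd79b encode the signalling chains of the B cell receptor. Cd79a was at 0.884, 0.399, 0.551 and 31.6 CPM in VC tumours 1 to 4 and at 1.53, 1.49, 1.70 and 11.8 CPM in miR-21-KD tumours 1 to 4. VC tumour 4 was thus 35.7-fold above the next VC tumour, while miR-21-KD tumour 4 was 6.93-fold above the next of its group. Cd79b was at 2.14, 1.20, 1.73 and 53.8 CPM in the VC tumours and at 7.34, 4.48, 4.22 and 20.5 CPM in the miR-21-KD tumours. The groups overlapped for both genes through tumour 4 alone, since the other 3 miR-21-KD tumours lay above the other 3 VC tumours. In VC tumour 4 there were 1.70 Cd79b reads per Cd79a read (95% exact interval 1.5 to 1.93) and in miR-21-KD tumour 4 there were 1.74 (1.42 to 2.13), so the ratio of the pair of chains did not differ between these tumours beyond counting error.

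Ms4a1 encodes CD20, a surface protein of B cells that is lost on plasma cells. Its levels were 0.958, 0.159, 0.236 and 25.4 CPM in the VC tumours and 2.34, 1.26, 1.22 and 12.9 CPM in the miR-21-KD tumours. It had the same pattern as Cd79a, high in both tumours numbered 4 and 26.5-fold above the next VC tumour.

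Cd22, an inhibitory coreceptor, varied least of the 9 genes across tumours. It was at 15.3, 15.2, 13.7 and 52.0 CPM in the VC tumours and at 62.0, 30.6, 35.1 and 56.2 CPM in the miR-21-KD tumours. VC tumour 4 was 3.40-fold above the next VC tumour and was the only VC tumour within the range of the miR-21-KD group. Reads of Cd22 per read of Cd79b were 6.84 to 12.7 in the 6 tumours numbered 1 to 3, but 0.968 (0.867 to 1.08) in VC tumour 4 and 2.74 (2.38 to 3.17) in miR-21-KD tumour 4. Cd22 thus did not rise in proportion to the receptor chains where these were abundant.

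Cr2 encodes CD21, the complement receptor that enhances B cell receptor signals and that is also found on follicular dendritic cells. It had 10, 3, 2 and 28 reads in the VC tumours and 1, 8, 3 and 138 reads in the miR-21-KD tumours. It was the gene that favoured miR-21-KD tumour 4 most, at 10.8 CPM against 2.28 CPM in VC tumour 4, a 4.73-fold difference between these tumours. Reads of Cr2 per read of Cd79a were 0.0722 (0.0473 to 0.106) in VC tumour 4 and 0.914 (0.720 to 1.16) in miR-21-KD tumour 4.

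Fcer2a encodes CD23, the low affinity IgE receptor of mature follicular B cells. It had 1, 0, 2 and 115 reads in the VC tumours and 2, 6, 7 and 136 reads in the miR-21-KD tumours. Both tumours numbered 4 held similar levels, 9.37 and 10.6 CPM, although Cd79a was 2.68-fold higher in that of the VC group. There were 0.296 Fcer2a reads per Cd79a read (0.239 to 0.366) in VC tumour 4 and 0.901 (0.709 to 1.14) in miR-21-KD tumour 4.

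Pax5, the transcription factor that maintains B cell identity, and Blk, a Src family kinase of the B cell receptor, were close to the limit of detection outside tumour 4. Pax5 had 2, 0, 0 and 55 reads in the VC tumours and 1, 3, 2 and 42 reads in the miR-21-KD tumours. Against the limit of 3 reads in the other tumours, tumour 4 was at least 18.7-fold higher in the VC group and at least 13.5-fold higher in the miR-21-KD group. Blk had 4, 3, 2 and 109 reads in the VC tumours and 17, 6, 4 and 52 reads in the miR-21-KD tumours. It was highest in tumour 4 of both groups, with miR-21-KD tumour 1 next.

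Jchain encodes the joining chain of IgM and IgA polymers and is a gene of antibody secreting cells. It was at 51.7, 5.18, 9.45 and 1036 CPM in the VC tumours and at 122.9, 22.5, 35.4 and 125.1 CPM in the miR-21-KD tumours. VC tumour 4 was 20.04-fold above the next VC tumour, but miR-21-KD tumour 4 was only 1.02-fold above tumour 1 of its group. Reads of Jchain per read of Cd79a were 32.8 (29.7 to 36.4) in VC tumour 4 and 10.6 (8.97 to 12.6) in miR-21-KD tumour 4. They were higher in tumour 1 of both groups, at 58.5 (33.3 to 113.8) for VC and 80.2 (51.2 to 133.5) for miR-21-KD, although the first interval overlaps that of VC tumour 4. The ratio of miR-21-KD tumour 4 was not distinct beyond counting error from that of VC tumour 2 (13.0, 5.29 to 41.4) or VC tumour 3 (17.1, 8.07 to 43.6).

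**Figure D2:**
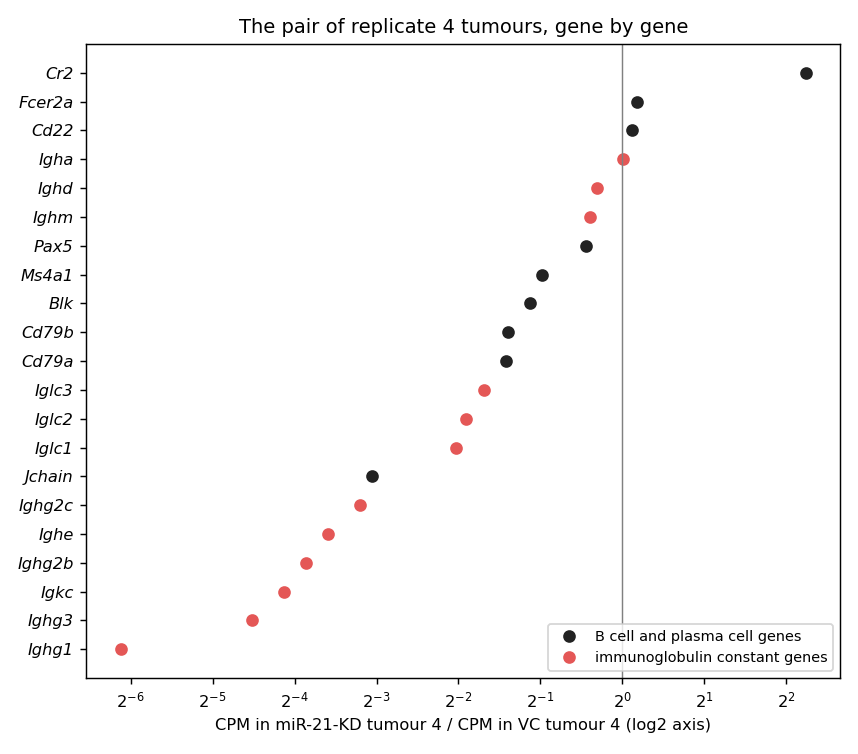
Ratio of the CPM in miR-21-KD tumour 4 to that in VC tumour 4 for each of the 9 genes (black) and each immunoglobulin constant gene (red), on a log2 axis with the vertical line at equality. Cr2 lies farthest to the right (4.73), Jchain (0.121) and Ighg1 far to the left.

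The pair of tumours numbered 4 therefore differed from each other in which genes were abundant. From highest to lowest, the ratio of miR-21-KD tumour 4 to VC tumour 4 in CPM was 4.73 for Cr2, 1.14 for Fcer2a, 1.08 for Cd22, 0.733 for Pax5, 0.507 for Ms4a1, 0.458 for Blk, 0.381 for Cd79b, 0.373 for Cd79a and 0.121 for Jchain. The coreceptor and follicular genes lay at or above equality, the receptor chains below it and the secretory gene lowest. Each of these values compares a single tumour with a single tumour.

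The immunoglobulin constant genes, whose products the 9 genes serve, were read in the same way. They took 0.0574%, 0.00863%, 0.0147% and 1.65% of all reads in the VC tumours and 0.126%, 0.0255%, 0.0306% and 0.113% in the miR-21-KD tumours. Outside VC tumour 4 the heavy chain reads came mainly from Ighm, the IgM heavy chain, which made up 71.7% to 98.6% of them in the tumours numbered 1 to 3. In VC tumour 4 the IgM share was 7.02% (95% Wilson interval 6.89% to 7.16%) and Ighg1 took 88.1% (87.9% to 88.3%), with 116101 reads against 8 to 122 reads in the other VC tumours. In miR-21-KD tumour 4 Ighm took 72.8% (71.9% to 73.7%) and Ighg1 17.3% (16.5% to 18%), with 1739 reads against 100 to 207 in the others. Ighg1 made up 0.996% to 9.05% in the tumours numbered 1 to 3. Igha, the IgA chain, reached its largest share, 14.8% (13.4% to 16.4%), in miR-21-KD tumour 2.

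Ighd, the IgD chain that is made with IgM by naive B cells, had 0, 1, 3 and 179 reads in the VC tumours and 8, 15, 8 and 151 reads in the miR-21-KD tumours. Reads of Ighd per read of Ighm were 0.0193 (0.0166 to 0.0224) in VC tumour 4 and 0.0206 (0.0174 to 0.0242) in miR-21-KD tumour 4. The tumours numbered 4 were thus alike within counting error in this ratio, whereas Ighg1 per Ighm was 12.5 (12.3 to 12.8) in the first and 0.237 (0.225 to 0.250) in the second. The constant genes of the IgG subclasses are closely related, and the reference follows C57BL/6 mice, which carry Ighg2c where BALB/c mice carry Ighg2a, so the split between subclasses is uncertain.

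**Figure D3:**
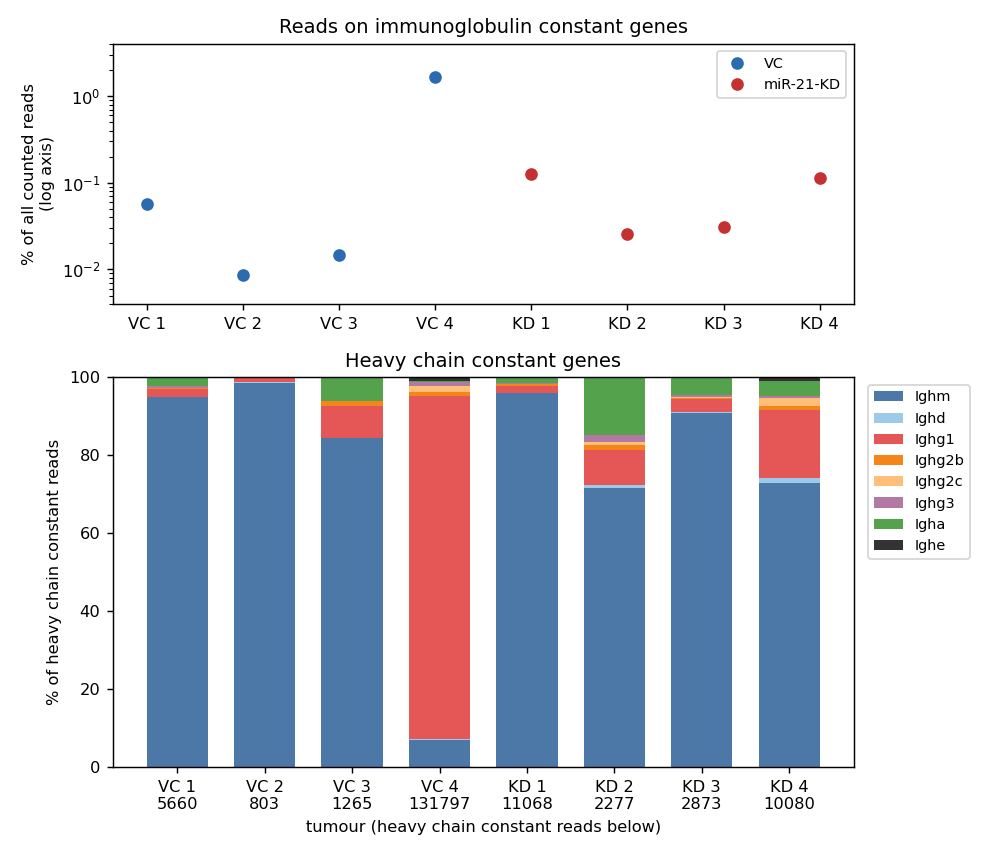
Upper panel, share of all counted reads that fell on immunoglobulin constant genes in each tumour (log axis), with VC tumour 4 at 1.65%. Lower panel, make-up of the heavy chain constant reads by gene, with their number under each bar. Ighg1 fills most of the bar of VC tumour 4 (88.1%) and Ighm most of every other bar.

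Reads on variable genes, examined after these values were seen, were spread over many genes in most tumours. Of the 226 variable genes in the table, 206 had a read in VC tumour 4 and 150 in miR-21-KD tumour 4, against 44 to 138 in the other tumours. The number of reads on them was 46358 in VC tumour 4, 3132 in miR-21-KD tumour 4 and 165 to 3247 elsewhere. The most read variable gene took 8.01% (7.77% to 8.26%) of these reads in VC tumour 4 (Igkv3-4) and 7.54% (6.66% to 8.51%) in miR-21-KD tumour 4 (Igkv12-89), and shares as low were seen in VC tumour 1 (7.94%) and miR-21-KD tumour 2 (7.18%). Variable genes are near copies of each other, so reads may be placed on a relative.

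Against this background, the comparison of the 4 miR-21-KD with the 4 VC tumours found no gene past the threshold. Filtering on low counts left 5 of the 9 (Cd79a, Cd79b, Ms4a1, Cd22 and Jchain), and 0 of these passed an adjusted p of 0.05 in edgeR's quasi-likelihood test, while 39.1% of all tested genes did (19.6% with a rise and 19.5% with a fall under knockdown). None had an unadjusted p under 0.05 either. Values of the groups overlapped for all 9 genes, whereas for 35.1% of the tested genes they did not.

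Group means were dominated by tumour 4. Mean Cd79a was 8.36 ± 15.5 CPM for VC against 4.13 ± 5.11 CPM for miR-21-KD (SD over 4 tumours), and its log2 fold change was -1.01 ± 1.39 (SE) with an adjusted p of 0.584. That of Cd79b was -0.69 ± 1.20 (adjusted p = 0.670), that of Ms4a1 -0.59 ± 1.43 (adjusted p = 0.763) and that of Jchain -1.85 ± 1.47 (adjusted p = 0.337). For these genes the SE of the log2 fold change was 1.20 or more, so the estimates were imprecise.

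Cd22 was the exception in its spread. Its mean was 24.1 ± 18.7 CPM for VC against 46.0 ± 15.4 CPM for miR-21-KD (SD over 4 tumours), with a log2 fold change of 0.93 ± 0.47 (SE) and an adjusted p of 0.137. Tumours of the same number varied together across the groups in these same data, although the labels name no pairing. A fit that blocked on the number gave Cd22 a log2 fold change of 1.11 ± 0.30 and an adjusted p of 0.0296. In that fit 23% of tested genes rose.

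The direction of Cd79a, Cd79b, Ms4a1 and Jchain depended on VC tumour 4, whereas that of Cd22 did not. Because the tumours numbered 4 were singled out for their high levels of these genes, leaving out VC tumour 4 moves the fold changes up by construction, and the values without it are a description and no support for a rise. With VC tumour 4 left out, the log2 fold change of Cd79b was 2.42 ± 0.64 (adjusted p = 0.0235) and that of Cd22 1.63 ± 0.26 (adjusted p = 0.00854), and 2 of the 5 genes passed (20.4% of all genes tested rose in that fit). With miR-21-KD tumour 4 left out instead, the values of Cd79a, Cd79b, Ms4a1 and Jchain were -2.40, -1.46, -2.05 and -2.20. With tumour 4 of both groups left out (n = 3 each), Cd79a was 1.35 ± 0.37 (adjusted p = 0.0479), Cd79b 1.66 ± 0.35 (adjusted p = 0.0331) and Cd22 1.53 ± 0.28 (adjusted p = 0.0312) on the log2 scale. Then 3 of the 5 genes passed (11% of all genes tested rose). In that fit Cd79a and Ms4a1 met the filter on low counts through the miR-21-KD tumours, so this count too is a description. Ms4a1 stood at 1.79 ± 0.67 (adjusted p = 0.0894) and Jchain at 1.44 ± 0.98 (adjusted p = 0.287). In these 6 tumours every miR-21-KD tumour lay above every VC tumour for 4 of the 5 tested genes (Cd79a, Cd79b, Ms4a1 and Cd22), as for 24.4% of all tested genes. For Blk and Fcer2a the lowest miR-21-KD and the highest VC tumour had equal reads (4 and 2), so their groups were not separated. Only Cr2 had the lower mean in miR-21-KD tumours, 0.317 ± 0.281 against 0.378 ± 0.314 CPM (SD, n = 3).

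**Figure D4:**
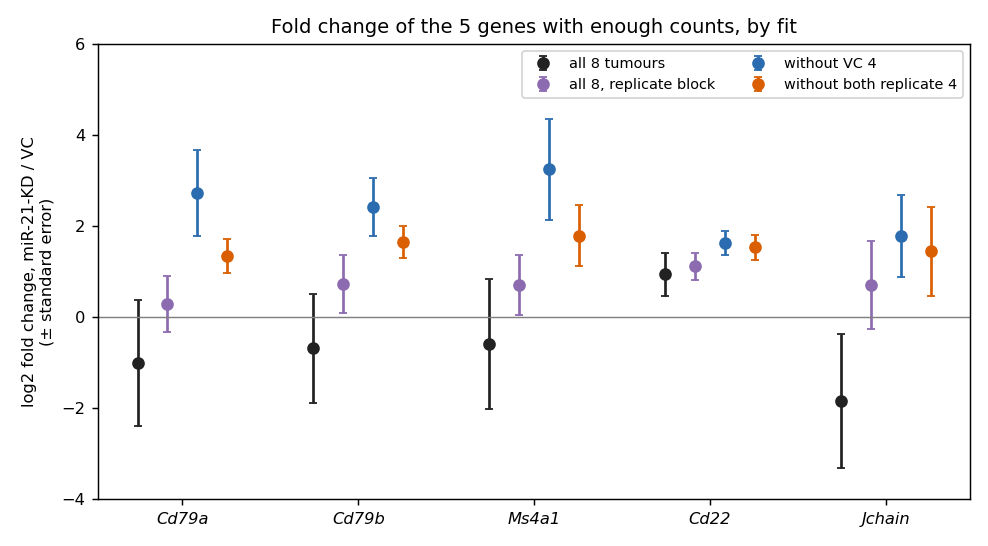
Log2 fold change (miR-21-KD over VC) of the 5 genes with enough reads, with SE, in edgeR fits of all 8 tumours, all 8 with a block for the replicate, without VC tumour 4, and without tumour 4 of both groups. The first fit lies below 0 for Cd79a, Cd79b, Ms4a1 and Jchain, and the others lie above 0 for all 5.

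Other leukocytes differed between the same tumours. Ptprc (CD45), carried by all leukocytes, was at 131.9 to 278.5 CPM in VC tumours, highest in tumour 4, and at 319.6 to 480.9 CPM in miR-21-KD tumours, and it rose with a log2 fold change of 0.99 ± 0.25 (adjusted p = 0.0180). Per 1000 reads of Ptprc there were 3.02 to 4.36 reads of Cd79a in VC tumours 1 to 3 and 3.19 to 5.28 in miR-21-KD tumours 1 to 3, so on this scale the groups overlapped. The same ratio was 113.5 in VC tumour 4 and 31.5 in miR-21-KD tumour 4. Cd22 per 1000 Ptprc reads was 75.6 to 115.4 in VC tumours 1 to 3 and 95.8 to 128.9 in miR-21-KD tumours 1 to 3, again overlapping. Cd79b alone of the 5 tested genes had groups apart in tumours 1 to 3, with 9.06 to 12.3 against 13.1 to 15.3. The nearest of these values rest on 22 Cd79b reads in VC tumour 3 and 52 in miR-21-KD tumour 3. Their counting error was not computed. The part of the leukocyte level in the values without tumour 4 was not tested.

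T cell markers moved less with tumour 4 in sum than the B cell genes. All 10 were highest in tumour 4 within the VC group, where their sum was 169.1 CPM against 42.7 to 99.3 CPM, but 1 of 10 was highest in tumour 4 within the miR-21-KD group, where it was 274.4 CPM in a range of 150.2 to 344.9 CPM. Of the 10, VC tumour 4 stood farthest above the next VC tumour for Cd8a (3.74-fold) and Cd8b1 (3.61-fold), the chains of the coreceptor of cytotoxic T cells, and 1.13- to 2.11-fold above it for the rest. The ratios of Cd8a and Cd8b1 exceeded those of Cd22 and Cr2.

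Genes of lymph node stroma were examined because lymphoid tissue can be sampled with a tumour of the fat pad. Ccl19 had 0 reads in all 8 tumours, and Ccl21a had 2 reads in VC tumour 4, 3 in miR-21-KD tumour 4 and 0 elsewhere. Glycam1, a ligand of L-selectin on lymph node venules that is also a milk protein gene, had 12, 1, 8 and 119 reads in the VC tumours and 10, 5, 11 and 304 in the miR-21-KD tumours. Cxcl13, the chemokine that draws B cells into follicles, had 25, 4, 8 and 79 reads in the VC tumours and 62, 78, 56 and 203 in the miR-21-KD tumours. Its log2 fold change was 1.77 ± 0.82 (adjusted p = 0.115), and 2.16 ± 0.47 with the replicate block (adjusted p = 0.0150). Of the 10 stroma genes, 7 were highest in tumour 4 within the VC group (30.1% of all tested genes). Within the miR-21-KD group 3 were (19.5%). Their sums were 20.4 to 73.5 CPM and 39.9 to 64.6 CPM, with tumour 4 the highest in both but a different gene contributing most. Lyve1 was at 43.2 CPM in VC tumour 4 and at 10.9 CPM, the lowest of its group, in miR-21-KD tumour 4. Glycam1 was at 9.69 and 23.8 CPM in these tumours.

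Mammary gland and fat genes also varied between the tumours, but neither set as a whole was highest in tumour 4 of both groups. The milk protein genes were looked at after Csn1s2a was seen among the 82 genes above. Csn1s2a, a casein, had 30, 29, 35 and 525 reads in the VC tumours and 3, 59, 69 and 10 in the miR-21-KD tumours, high in VC tumour 4 but not in miR-21-KD tumour 4. Lalba, the alpha-lactalbumin gene, had 6, 11, 8 and 66 reads in the VC tumours and 17, 48, 151 and 143 in the miR-21-KD tumours. Csn3 had 546, 190, 216 and 647 reads in the first group and 645, 484, 2127 and 1630 in the second. Csn2 had 660, 178, 295 and 1248 reads and 317, 268, 1144 and 608 reads. Csn1s1 (488 and 26 reads in VC and miR-21-KD tumour 4) and Wap (19 and 1) were, like Csn1s2a, highest in VC tumour 4. Within the miR-21-KD group Lalba, Csn2 and Csn3 were highest in tumour 3 and next in tumour 4. The 4 adipocyte markers all rose in miR-21-KD tumours, with a median log2 fold change of 2.53 (19.6% of all tested genes rose), and 2 of the 4 did without tumour 4 of both groups (11%). All 4 were highest in tumour 4 within the miR-21-KD group, where their sum was 1097 CPM against 415.9 to 693.2 CPM, and 0 of 4 within the VC group, where it was 164.9 CPM in a range of 84.0 to 314.5 CPM. The part of neighbouring tissue in the levels of the B cell genes was not tested.

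The other genes of the lineage were taken from written lists. Of 26 other B lineage genes, 23 were tested, and 4 rose and 0 fell in miR-21-KD tumours, with a median log2 fold change of 0.52 against -0.01 over all tested genes. The number that rose was near the 19.6% of all tested genes. The 4 were Ly6d (4.17 ± 0.71, adjusted p = 0.00672), Siglecg (1.78 ± 0.36, adjusted p = 0.00949), Cd37 (1.52 ± 0.37, adjusted p = 0.0154) and Ebf1 (1.14 ± 0.29, adjusted p = 0.0176). None of these is restricted to B cells, since Ly6d is also made by squamous epithelium, Cd37 and Siglecg by other leukocytes and Ebf1 by adipocytes and stroma. Beside them Krt14, a keratin of basal and squamous epithelium, rose by 3.08 ± 0.66 (adjusted p = 0.0110), as did Ptprc and the adipocyte markers. Of the other epithelial markers Epcam and Cdh1 also rose, Krt18 fell by 1.15 ± 0.37 on the log2 scale (adjusted p = 0.0374) and Krt8 had a value of -0.88 ± 0.37 (adjusted p = 0.0870, and 0.0413 with the block). The part of these cell types was not tested. None of them stood more than 5-fold above the other tumours in tumour 4. Without VC tumour 4, 13 of the 23 rose (20.4% of all genes tested), and without tumour 4 of both groups 9 did (11%). With the replicate block 8 did (23%).

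Pou2af1, a transcriptional coactivator at immunoglobulin promoters that was named after its values were seen, was highest in tumour 4 of both groups. It was at 148.4 CPM in VC tumour 4, 44.8-fold above the next VC tumour, and at 15.6 CPM in miR-21-KD tumour 4. Cd72, an inhibitory receptor also made by macrophages, had a log2 fold change of -0.47 ± 0.42 (adjusted p = 0.389), and Scimp, an adaptor of antigen presenting cells, one of 0.93 ± 0.33 (adjusted p = 0.0545), which was 1.06 ± 0.30 with the block (adjusted p = 0.0342).

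Of 17 plasma cell genes 15 were tested, and 3 rose and 1 fell, with a median log2 fold change of -0.01. The share that rose was near the 19.6% of all tested genes. In all, 2 genes passed without VC tumour 2, miR-21-KD tumour 1 or miR-21-KD tumour 3, and 8 without VC tumour 4. Of all genes tested, 22.5% to 26.5% passed in the first 3 of these fits and 38.8% in the last. Pim2 (0.81 ± 0.18, adjusted p = 0.0126), Sdc1 (0.42 ± 0.11, adjusted p = 0.0214) and Prdm1 (0.60 ± 0.19, adjusted p = 0.0387) rose, and Txndc5, a disulfide isomerase of the endoplasmic reticulum, fell by 0.45 ± 0.09 on the log2 scale (adjusted p = 0.00800). None of these genes is restricted to plasma cells. Xbp1 and Edem1, of the secretory and protein degradation machinery of many cells, had log2 fold changes of 0.11 ± 0.18 (adjusted p = 0.659) and -0.08 ± 0.22 (adjusted p = 0.801). Mzb1, a chaperone of immunoglobulin assembly named after its values were seen, was at 2.58, 0.478, 1.58 and 150.8 CPM in the VC tumours and at 7.10, 3.30, 4.13 and 10.7 CPM in the miR-21-KD tumours. Like Jchain it was highest in VC tumour 4 in CPM. Per read of Cd79a, however, its 4.77 reads there (4.28 to 5.34) did not differ from the 4.63 (2.80 to 8.06) of miR-21-KD tumour 1 beyond counting error, and it was 0.907 (0.715 to 1.15) in miR-21-KD tumour 4.

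Of 12 immunoglobulin constant genes 9 were tested and 0 passed, against 39.1% of all tested genes, with a median log2 fold change of -0.80 that VC tumour 4 carried, since without that tumour it was 1.78. In that fit 1 of the 9 rose, Iglc3 (2.67 ± 0.79, adjusted p = 0.0319), against 20.4% of all genes tested. Ighg1 had a log2 fold change of -5.75 ± 2.67 (adjusted p = 0.114), Igkc of -2.89 ± 1.69 (adjusted p = 0.196) and Ighm of 0.45 ± 0.85 (adjusted p = 0.697).

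Some genes that signal downstream of the receptor passed the test. All 28 B cell receptor signalling genes were tested, and 11 rose and 2 fell, with a median log2 fold change of 0.44. Over all tested genes 19.6% rose and 19.5% fell. Without VC tumour 3, 6 of the 28 rose and 2 fell, where 9.90% of all genes tested rose. Plcg2, the phospholipase C of B and myeloid cells, fell by 0.99 ± 0.15 on the log2 scale (adjusted p = 0.00571), and Pik3r1 (0.92 ± 0.16, adjusted p = 0.00699) and Fyn (0.70 ± 0.13, adjusted p = 0.00811) rose. Fcgr2b, the inhibitory IgG receptor of B cells and macrophages, rose by 0.90 ± 0.18 (adjusted p = 0.00846). Cd81 (0.06 ± 0.09, adjusted p = 0.657) and Nfkb1 (-0.09 ± 0.22, adjusted p = 0.778) did not pass. The genes of this list are shared with other leukocytes and with non-haematopoietic cells, and 17 of the 28 were highest in tumour 4 within the VC group, as were 30.1% of all tested genes, and 2 within the miR-21-KD group (19.5%). Blnk, the adaptor that links the receptor to its kinases, was at 43.6 CPM in VC tumour 4, 6.36-fold above the next VC tumour.

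Of 7 germinal centre genes 4 were tested. Gcsam, a germinal centre signalling gene, rose by 1.57 ± 0.34 (adjusted p = 0.0115), whereas Ung, the uracil glycosylase that acts in class switching and in DNA repair of all cells, fell by 0.93 ± 0.20 (adjusted p = 0.0116), and S1pr2 fell by 0.25 ± 0.08 (adjusted p = 0.0391) on the log2 scale. The call of S1pr2 was lost with the replicate block (adjusted p = 0.0629). Bcl6 had a value of 0.30 ± 0.18 (adjusted p = 0.213).

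Factors that support or attract B cells were a further list. Of 14 genes 10 were tested, and 4 rose and 0 fell, with a median log2 fold change of 1.18, while 19.6% of all tested genes rose. The number fell to 1 when any of VC tumour 2, VC tumour 3, miR-21-KD tumour 1 or miR-21-KD tumour 4 was left out, and to 2 without miR-21-KD tumour 3. Of all genes tested, 9.90% to 13.64% rose in these fits. With the replicate block 5 rose, Cxcl13 among them, against 23% of all tested genes. Cxcl12, a stromal chemokine that holds B cells and plasma cells in their niches, rose by 2.11 ± 0.51 (adjusted p = 0.0152), Ltb, the lymphotoxin chain of lymphocytes, by 1.28 ± 0.40 (adjusted p = 0.0342), Il4 by 1.54 ± 0.48 (adjusted p = 0.0346) and Cd40lg by 1.75 ± 0.59 (adjusted p = 0.0448). Tnfsf13b, which encodes the survival factor BAFF, had a value of -0.52 ± 0.25 (adjusted p = 0.126). Cxcl12 was at 73.5 CPM in VC tumour 4, against a VC mean of 92.1 ± 59.3 CPM (SD, n = 4), while Cxcl13 was at 6.43 CPM there, 3.49-fold above the next VC tumour.

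The genes whose levels across the 8 tumours were closest to those of the 5 tested genes were found by the root mean square difference of centred log2 CPM, which had a median of 1.72 over all tested genes. They were Bhlha15 (0.481), a transcription factor of secretory cells, Dtx1 (0.537), a Notch regulator, H2-Ob (0.579), the chain of a class II chaperone of B cells, Lax1 (0.580), a lymphocyte adaptor, and Iglc2 (0.587), a lambda light chain constant gene. Derl3 (0.606), a gene of protein degradation in the endoplasmic reticulum, Ighv6-6 (0.625), Chst3 (0.633), Tg (0.697), the thyroglobulin gene, and Ighv1-14 (0.712) followed. Among the 5 genes themselves the difference from their own mean ranged from 0.210 for Cd79b to 1.08 for Cd22. Of these neighbours, Bhlha15 and Derl3 were high in VC tumour 4 (15.2 and 23.1 CPM) and not in miR-21-KD tumour 4 (2.58 and 3.83 CPM), whereas H2-Ob was at similar levels in both (15.1 and 14.3 CPM).

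Genes that stood apart in tumour 4 included many of the lineage. Of the 82 genes that stood more than 5-fold above the other VC tumours in VC tumour 4, 47 were immunoglobulin genes, 4 were of the 9 and 31 were others, the casein gene Csn1s2a among them. Of the 9 such genes in miR-21-KD tumour 4, 4 were immunoglobulin genes and 2 were of the 9 (Cd79a and Ms4a1), and Glycam1 and Fcmr, the IgM Fc receptor, were also among them. These counts cover only tested genes, so Pax5, Blk, Fcer2a and Cr2 could not enter them.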

How the data were processed

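The deposited table holds raw, unnormalized read counts for each Entrez gene, with 1 column for each of the 8 tumours, and every column was used. The submitters' processing notes name the mm10 build, Subread, featureCounts, edgeR and limma. The annotation and the strand setting are not given in the sources used here. Symbols and promoter windows came from RefSeq GRCm38.p6 (25275 of 27179 identifiers matched) and gene positions from GENCODE on GRCm38.

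The groups were compared with edgeR 4.0.16 under R 4.3.3 (filterByExpr with a minimum count of 10 and a minimum total of 15, TMM, robust quasi-likelihood test, Benjamini-Hochberg adjustment over 14382 genes, threshold 0.05) and the fit was tested on simulated data. P-values measure the spread between these tumours, which the labels do not describe further. Ratios of reads carry exact binomial and shares Wilson 95% intervals, which cover counting error only. The alternatives were DESeq2 1.42.0, limma-voom (limma 3.58.1) with and without quality weights, other scalings and filters, a replicate block, and each tumour or both tumours numbered 4 left out.

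The 9 genes, the lists and the tests were chosen with earlier results of these data known. Named genes were all 9, the 3 of highest mean CPM and up to 3 of smallest adjusted p past the threshold from each list, and the 10 most similar profiles. Others are marked as chosen after their values were seen, or belong to a small count named in full. After removal of group means, tumours of the same number correlated at 0.272, 0.421, 0.175 and 0.376 (mean of other combinations -0.105). Removal of group means pushes the mean of other combinations below 0 when those of the same number lie above it. The negative mean is therefore no separate evidence. The numbers were taken to pair the tumours on these same data, so fits with the replicate block are a description. The labels name no pairing. No pair of tumours in a group was alike within sampling noise (chi-square per degree of freedom 13.3 to 75.4). The results of some genes are not reported here.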

Additional observations from a re-analysis of the deposited data

Results flagged for a closer look

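Of 42 groups of 4 tumours examined (the 9 genes and 12 immunoglobulin constant genes in each group), 26 held a tumour whose gap to its nearest neighbour was most of the range of the group. It was VC tumour 4 in 17 and miR-21-KD tumour 4 in 9. Chance gives such a gap in about 1 of 20 groups, but this is no test here, since the genes were chosen knowing that these tumours stood apart, and the groups share their tumours. The values are given as a description.

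Among the 9 genes, the gap in the VC group as a share of its range was 0.984 for Cd79a, 0.982 for Cd79b, 0.968 for Ms4a1, 0.958 for Cd22, 0.967 for Pax5, 0.984 for Blk, 0.983 for Fcer2a and 0.955 for Jchain. In the miR-21-KD group it was 0.980 for Cd79a, 0.904 for Ms4a1, 0.952 for Pax5, 0.961 for Fcer2a and 0.949 for Cr2.

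Among the constant genes, the gap in the VC group was 0.984 for Ighd, 0.999 for Ighg1, 0.988 for Ighg2b, 1.0 for Ighg2c, 0.981 for Ighg3, 0.995 for Ighe, 0.977 for Igkc, 0.911 for Iglc2 and 0.910 for Iglc3. In the miR-21-KD group it was 0.952 for Ighd, 0.933 for Ighg1, 0.931 for Ighg2c and 0.959 for Ighe.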

How the results depend on the processing

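The number of the 5 genes called, 0 with all 8 tumours, was 1 with limma-voom quality weights, 1 with the replicate block and 3 without both tumours numbered 4, and 0 to 2 with single tumours left out (2 without VC tumour 4). Under limma-voom, voom with quality weights, the block and without both tumours numbered 4, the log2 fold change turned to 0.72, 1.76, 0.28 and 1.35 for Cd79a, 0.91, 1.62, 0.72 and 1.66 for Cd79b, 1.32, 2.47, 0.70 and 1.79 for Ms4a1, and 0.57, 1.74, 0.70 and 1.44 for Jchain. With single tumours left out it ranged from -2.40 to 2.73, from -1.46 to 2.42, from -2.05 to 3.24 and from -2.27 to 1.78 in the same order, positive only without VC tumour 4. Pairing by the replicate block changed the call of Cd22 and of no other of the 5 genes. DESeq2 gave Cd22 an adjusted p of 0.0740 and the other 4 none. Cd22 stayed positive throughout, with an adjusted p of 0.00705 to 0.282 over the alternatives. Genes called in the lists, 28 in all, were 49 with quality weights and 18 to 46 with single tumours left out (18 without VC tumour 3, 46 without VC tumour 4). Of all genes, 5626 were called, against 2896 without both tumours numbered 4 and 2936 to 6840 with single tumours left out, the fewest without VC tumours 2 (3290) or 3 (2936) or miR-21-KD tumours 3 (3750) or 4 (3366). The cause of these shifts was not tested. Pax5, Fcer2a and Cr2 could be fitted only without the filter on low counts. Depth limits the genes with under 10 reads in most tumours.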
